A study of Mus musculus with 6 samples.

Results

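Acaa1b and 8 other genes of peroxisomal fatty acid oxidation were followed in mouse tongue after exposure to 4-nitroquinoline 1-oxide (4NQO), a DNA-damaging carcinogen. The 9 members, out of 18193 genes measured, were Acaa1a, Acaa1b, Ehhadh, Hsd17b4, Scp2, Pex11a, Abcd2, Abcd3 and Crot. Acaa1b was chosen by its own log2 signals in these tongues, because they were higher after 4NQO, so its values are given as a description with no test. The other 8 were chosen for their role in the pathway. Each gene was read from the probe sets that the platform annotation assigns to it alone, and the one with the highest mean over all 6 arrays served as its main probe set. The groups were 3 tongues of untreated C57BL/6J mice, an inbred wild-type strain, and 3 tongues of C57BL/6J mice that drank 4NQO at 100 μg/ml for 8 weeks. Each tongue came from an individual mouse and was hybridized to its own Affymetrix array. Levels are log2 signals, so that a difference of 1 is a doubling, and levels of different probe sets cannot be set against each other. A whole tongue mixes squamous epithelium, muscle, connective tissue, vessels, glands and immune cells, so fewer cells of a type and less RNA per cell cannot be told apart.

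Peroxisomes shorten fatty acids that mitochondria handle poorly, above all very long-chain and branched ones. ABCD transporters bring the acyl-CoA in, acyl-CoA oxidases start each round and release hydrogen peroxide, a bifunctional enzyme hydrates and dehydrogenates, and a thiolase cleaves off acetyl-CoA. In rodent liver the transcription factor PPAR alpha induces the straight-chain branch of this pathway as a block. Mice carry a pair of genes for the straight-chain thiolase, Acaa1a and Acaa1b.

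Acaa1b was far higher in all 4NQO-treated tongues, and none of the other 8 members followed it. The log2 signal of Acaa1b was 2.63, 3.34 and 3.21 in control tongues 1 to 3 and 6.59, 7.03 and 6.14 in 4NQO-treated tongues 1 to 3. The groups lay far apart, with a mean of 3.06 ± 0.38 (SD, n = 3) in control and 6.59 ± 0.44 (SD, n = 3) after 4NQO, a difference of 3.53 on the log2 scale. The control signals lay below the median of every array, the lowest of which was 4.45, and no test of these files places them over background, which leaves the true size of the rise unknown. Acaa1b has this 1 probe set of its own (1424451_at), and its value rests on it.

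The paralog Acaa1a was not higher after 4NQO. Acaa1a lies on chromosome 9 at 119341028 to 119350296 and Acaa1b on the same chromosome at 119148043 to 119157093 (GRCm38.p6), 184 kb apart. Its log2 signal was 7.33, 7.35 and 7.26 in control and 7.25, 7.02 and 7.18 in 4NQO-treated tongue. All treated tongues were slightly below all control tongues, by a difference of -0.17 (95% interval -0.49 to 0.16, adjusted p = 0.706 from limma), which did not pass the test. The second probe set of Acaa1a had a difference of -0.09 (95% interval -0.48 to 0.31) with overlapping groups. Both probe sets of Acaa1a carry the suffix _x_at, which Affymetrix gives to sets with probes that can also bind other transcripts, so some of their signal may not be Acaa1a.

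A further 2 probe sets are annotated to Acaa1a and Acaa1b together, and neither passed the test. The first (1416947_s_at) had log2 signals of 9.76, 9.77 and 9.69 in control and 9.89, 9.73 and 9.79 in 4NQO-treated tongue, a difference of 0.06 (95% interval -0.20 to 0.33). The second (1416946_a_at) had 7.61, 7.54 and 7.25 in control and 7.48, 7.43 and 7.59 after 4NQO, a difference of 0.03 (95% interval -0.32 to 0.39). In both, the groups overlapped. The annotation does not say which probes of these sets bind which of the paralogs, so their values cannot be read as a second measurement of Acaa1b.

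**Figure D1:**
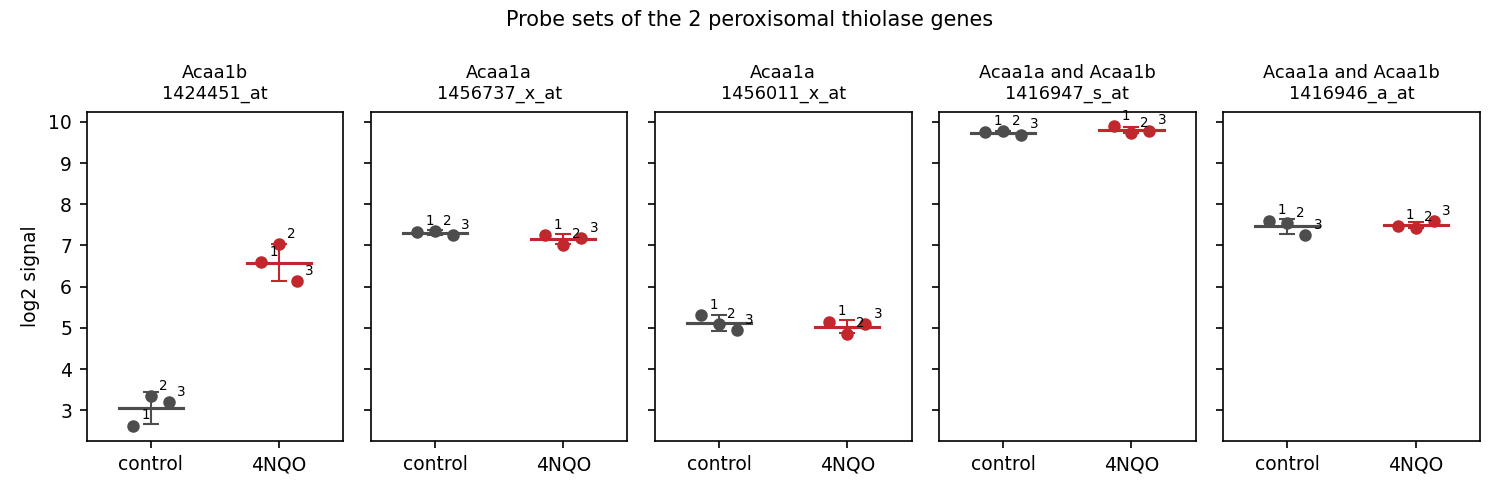
Log2 signal (vertical axis) of the 5 probe sets of Acaa1b and Acaa1a in 3 control and 3 4NQO-treated tongues; points are tongues numbered 1 to 3, horizontal bars are means and error bars SD. The probe set of Acaa1b alone goes from a mean of 3.06 to 6.59, while those of Acaa1a and those shared by both genes differ by -0.17 to 0.06.

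The sequence before the start site of Acaa1b is shown because this gene parted from its paralog in these tongues. It is the 250 bases before the RefSeq start (GRCm38.p6, chr9:119157094-119157343, minus strand), written 5′ to 3′ with the CCAAT motif on either strand in capitals.
Acaa1b: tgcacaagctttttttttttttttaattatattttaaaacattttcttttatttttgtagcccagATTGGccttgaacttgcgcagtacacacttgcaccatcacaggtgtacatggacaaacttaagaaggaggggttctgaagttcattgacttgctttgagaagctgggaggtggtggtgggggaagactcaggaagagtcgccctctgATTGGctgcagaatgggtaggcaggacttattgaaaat
The GC content of this window was 41.6%. CCAAT on either strand occurred 2 times, and it occurred at least once in 33.8% of 32851 mouse windows of the same length before a start site. The core of the antioxidant response element that NRF2 binds (TGACNNNGC, in 10.2% of windows) was not in this window on either strand. The same was true of the hexamer AGGTCA of nuclear receptors (14% of windows) and of the PPAR motif in which 2 such hexamers are 1 base apart (0.0335%). Only exact matches within these 250 bases were sought, so inexact or more distant sites were not looked for. So few windows hold the exact PPAR motif that its absence here says little. The window listed for Acaa1a lies inside the annotated gene, so it is neither shown nor compared.

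None of the 8 other members passed limma's test after adjustment over all genes, where 0.132% of genes passed, 0.126% as higher and 0.0055% as lower. Without adjustment, 1 of the 8 had a p under 0.05 as lower and 0 as higher, against 3.74% and 6.68% of all genes, and SAM, the test named in the study's methods, also called none. The differences of the 8 had a median of -0.19, with 7 negative and 1 positive, where 52.3% of all genes were negative and their median was -0.01. The upper ends of the 95% intervals were 0.36 or less for these members except Crot, whose interval reached 1.04. All of these intervals ended below 3.53, the difference of Acaa1b. That value describes a gene chosen for its rise, so the comparison is no test.

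The second thiolase activity of peroxisomes belongs to Scp2, whose longer product cleaves branched-chain substrates and whose shorter product is a sterol carrier. The main probe set of Scp2 read 11.27, 11.11 and 10.94 in control and 10.92, 10.92 and 11.10 in 4NQO-treated tongue, a difference of -0.13 (95% interval -0.42 to 0.17, adjusted p = 0.753 from limma). Its 3 other probe sets were far dimmer, and 1 of them (1449686_s_at) was higher in all treated tongues, at 4.71, 5.10 and 4.52 against 4.40, 4.22 and 4.45, without passing the test (difference 0.42, adjusted p = 0.493 from limma). The probe sets of Scp2 therefore differed in sign.

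The bifunctional enzymes were not higher either. Hsd17b4, the D-specific enzyme that serves both straight and branched chains, read 9.61, 9.63 and 9.46 in control and 9.30, 9.23 and 9.29 in 4NQO-treated tongue. It was lower in all treated tongues by 0.29, written as a log2 fold change of -0.29 (95% interval -0.56 to -0.02, adjusted p = 0.447 from limma), and it is the member that passed only without adjustment. Its second, dimmer probe set had a difference of 0.14 with overlapping groups, opposite in sign. Ehhadh, the L-specific enzyme and a classical PPAR alpha target of liver, read 4.51, 4.81 and 4.68 in control and 4.30, 4.31 and 4.84 after 4NQO. These signals of Ehhadh lay close to the array medians, and the difference was -0.19 (95% interval -0.63 to 0.26, adjusted p = 0.758 from limma).

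Neither transporter of the peroxisomal membrane passed the test. Abcd3, the abundant membrane protein that imports dicarboxylic and branched acyl-CoA, read 10.78, 10.90 and 11.02 in control and 10.62, 10.92 and 10.60 in 4NQO-treated tongue, a difference of -0.19 (95% interval -0.50 to 0.11, adjusted p = 0.645 from limma). Abcd2, which imports very long-chain and polyunsaturated acyl-CoA, read 7.97, 8.12 and 7.49 in control and 6.86, 7.12 and 8.12 after 4NQO. Treated tongues 1 and 2 were below all controls and treated tongue 3 equalled the highest control. The difference of Abcd2 was -0.49 (95% interval -1.26 to 0.27, adjusted p = 0.639 from limma), and its 3 other probe sets had differences of -0.27, -0.27 and -0.17. The second probe set of Abcd3 gave -0.50 with a wide 95% interval of -1.50 to 0.51.

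Crot, the carnitine octanoyltransferase that hands shortened chains on to mitochondria, and Pex11a, which elongates peroxisomes before they divide, varied among the tongues of each group. Crot read 6.95, 6.76 and 7.56 in control and 7.33, 7.97 and 7.17 after 4NQO (difference 0.40, 95% interval -0.24 to 1.04, adjusted p = 0.649 from limma). Pex11a read 8.32, 8.36 and 7.88 in control and 7.95, 7.22 and 8.42 after 4NQO (difference -0.32, 95% interval -1.01 to 0.36, adjusted p = 0.728 from limma). In each group Crot was highest and Pex11a lowest in the same tongue, control 3 and treated 2. Those are the tongues in which the Gapdh control probe sets gave the largest excess of 3′ over 5′ signal. It was 1.67 and 1.07 on the log2 scale against 0.09 to 0.47 in the others. With the actin control probe sets the largest excess was in treated 1, at 1.12. Control 3 had 1.01, treated 2 had 0.95 and the other tongues had 0.55 to 0.83. The part of such an excess in the signals of Crot and Pex11a was not tested. The second probe set of Crot had a difference of -0.30, opposite in sign to the first, and that of Pex11a had -0.08.

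**Figure D2:**
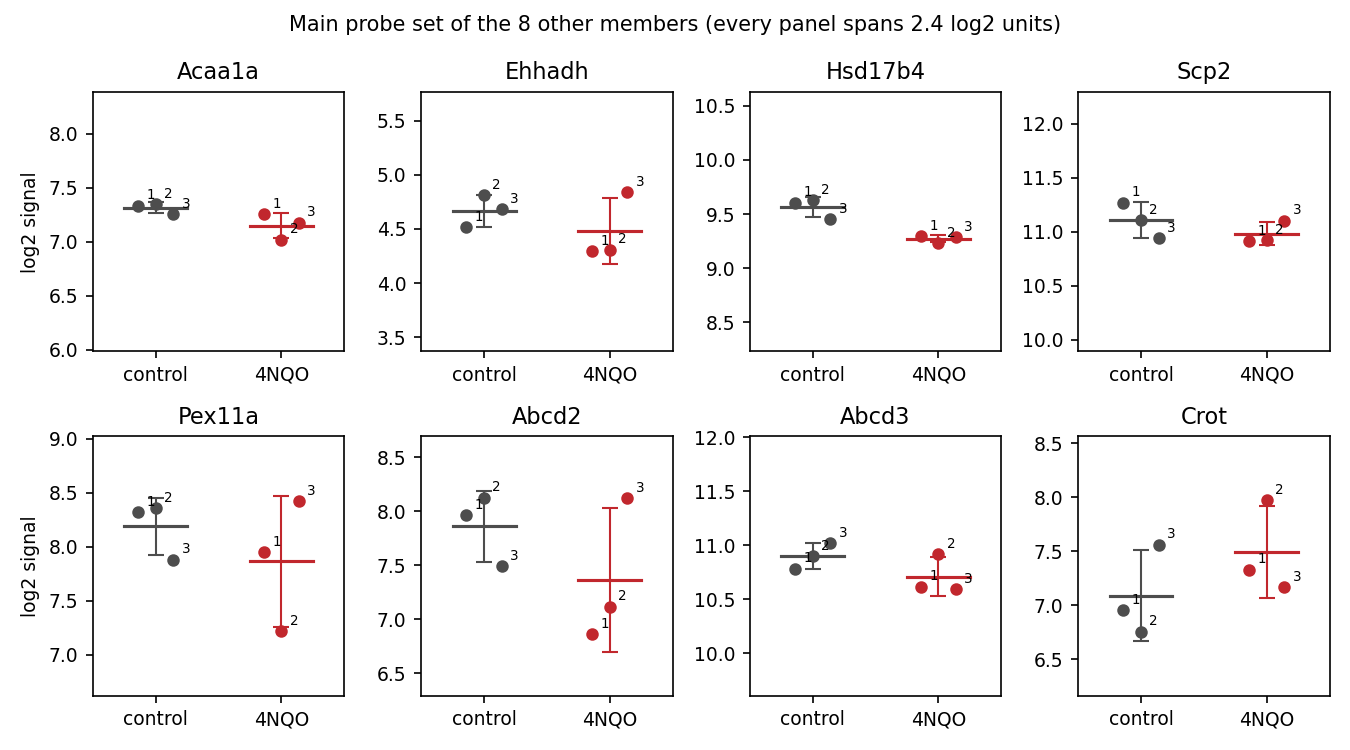
Log2 signal (vertical axis, every panel spanning the same range) of the main probe set of the 8 members other than Acaa1b, with tongues numbered 1 to 3, horizontal bars for means and error bars for SD. Acaa1a and Hsd17b4 are lower in all treated tongues by 0.17 and 0.29, and the groups of the other 6 overlap.

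Groups did not overlap for 2 of the 8 members, Acaa1a and Hsd17b4, both lower, against 7.18% of all genes that were lower and 9.59% that were higher in this way. Among the 11 other probe sets of the members none passed limma's test over all probe sets of single genes. Of these 11, 8 were lower and 3 were higher, where 52.3% of all genes were lower by their main probe set. Some belong to the same gene, as in Scp2 and Abcd2, so they are not independent. In 2 of them the groups did not overlap, that of Scp2 (1449686_s_at) as higher and that of Abcd2 (1438431_at) as lower.

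**Figure D3:**
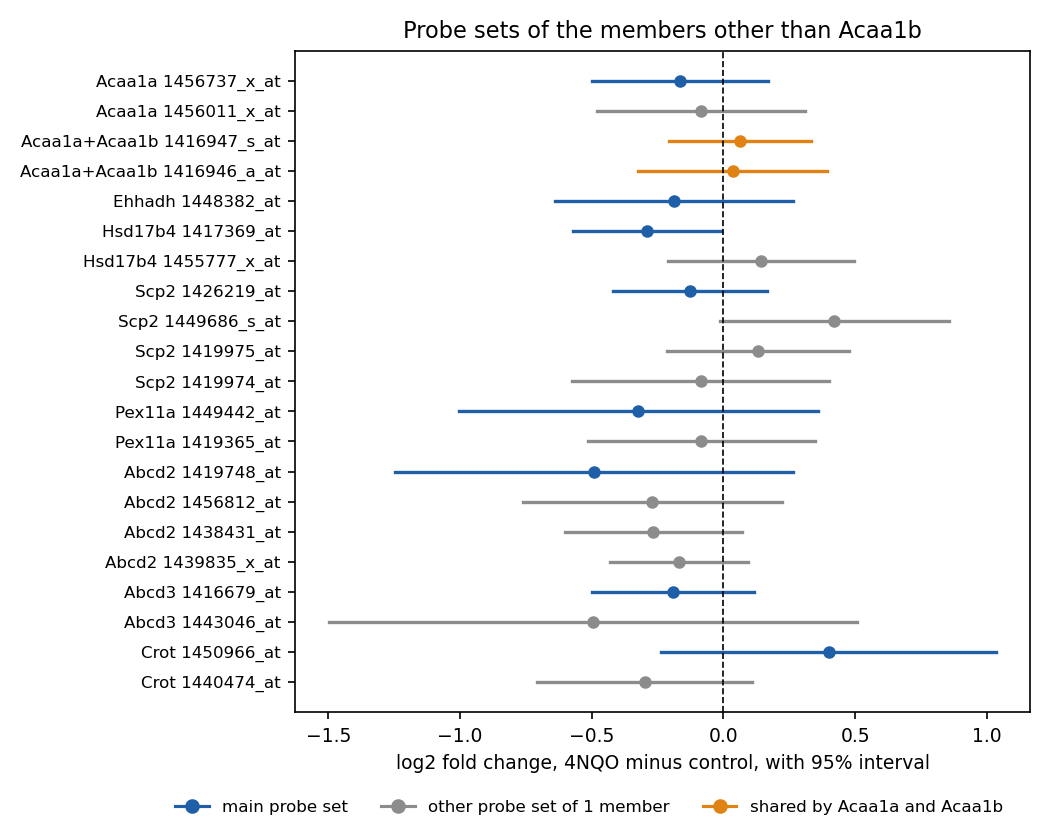
Log2 fold change, 4NQO minus control (horizontal axis), with 95% intervals from limma's fit over probe sets, for every probe set of the members other than Acaa1b. Blue marks main probe sets, grey the others and orange those shared by Acaa1a and Acaa1b; only the interval of the main probe set of Hsd17b4 leaves out 0, from -0.57 to -0.01, and no probe set passed after adjustment.

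The rest of the peroxisomal fatty acid machinery likewise held no called gene. Of 25 measured genes among 27 listed, which hold oxidases, isomerases, thioesterases and enzymes of alpha oxidation, none passed limma's test over all genes, while without adjustment 2 genes had a p under 0.05 as higher and 2 as lower, against 6.68% and 3.74% of all genes. Cat, the catalase that clears the hydrogen peroxide made by the oxidases and that is also counted among antioxidant genes, had the smallest p of the list. It read 7.24, 7.37 and 7.33 in control and 8.23, 8.20 and 7.81 in 4NQO-treated tongue, higher in every treated tongue by 0.77 (standard error 0.16, adjusted p = 0.141 from limma). Acbd5, a membrane protein that binds acyl-CoA and tethers peroxisomes to the endoplasmic reticulum, had a difference of 0.47 without overlap of the groups (adjusted p = 0.460 from limma). Hacl1, the lyase of alpha oxidation, had -0.43, and Eci2, an enoyl-CoA isomerase, -0.35, both also without overlap. The median over the 25 genes was -0.14.

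Genes that build and divide peroxisomes did not pass the test either. Of 16 measured peroxisome biogenesis and fission factors, none passed limma's test, none had an unadjusted p under 0.05, and their differences ran from -0.35 to 0.27 with a median of -0.10. Dnm1l, the dynamin that cuts peroxisomes and mitochondria, had a difference of -0.25 and Mff, its membrane receptor, 0.27. Pex13, a subunit of the import channel, had -0.19, and Pex5, the shuttling receptor for matrix enzymes, -0.27. A further list of 20 measured peroxisomal enzymes and membrane proteins outside fatty acid oxidation had a median of -0.09, and none of its genes passed or had an unadjusted p under 0.05 from limma. In it Gnpat, which starts plasmalogen synthesis, had a difference of -0.22, the NADPH-producing Idh1 had -0.23, the membrane protein Pxmp4 had -0.43 and the epoxide hydrolase Ephx2 had -0.24.

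In the mitochondrial counterpart of the pathway, all 17 measured genes had a negative difference, from -0.50 to -0.12 with a median of -0.27, where 52.3% of all genes were negative. The median was -0.17 without control tongue 1 and -0.41 without control tongue 3. None passed limma's test over all genes, and 3 were lower at an unadjusted p under 0.05, against 3.74% of all genes. Acaa2, the mitochondrial thiolase, read 11.56, 11.28 and 11.18 in control and 11.08, 10.85 and 11.11 in 4NQO-treated tongue, lower in every treated tongue (difference -0.33, adjusted p = 0.463 from limma). Hadha, the alpha subunit of the trifunctional protein, had a difference of -0.43, Eci1, an enoyl-CoA isomerase, -0.50 and Acadvl, the very long-chain dehydrogenase, -0.38. These genes are abundant in muscle, whose 10 marker genes had a median difference of -0.15 and a mean log2 signal of 12.14 to 12.87 in control and 12.09 to 12.68 in treated tongues, and the part of muscle content in them was not tested.

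The receptors that control the pathway in liver did not pass the test. Of 19 PPAR alpha targets outside the peroxisome, 15 had a negative difference, some from signals below all array medians. Ppara had a difference of -0.35 (95% interval -0.92 to 0.23), Ppard 0.48, Pparg 0.26, the partner Rxrg -0.41 and the coactivator Ppargc1a -0.48, all with overlapping groups and none past limma's test. Of 19 measured PPAR alpha targets outside the peroxisome, 1 fell, none rose and 18 did not pass, while without adjustment 0 had a p under 0.05 as higher and 6 as lower. Over all genes these shares were 6.68% and 3.74%, and 52.3% were negative. The median difference of the 19 was -0.32, and it was -0.14 without control tongue 1 and -0.50 without control tongue 3. Ucp3, an uncoupling protein of muscle mitochondria, fell from 8.92, 9.34 and 9.23 in control to 7.55, 7.76 and 7.73 after 4NQO, a difference of -1.48 (limma, adjusted p = 0.0174). The fall of Ucp3 did not pass without control tongue 2 or 3 or without treated tongue 1, 2 or 3, with adjusted p from 0.0530 to 0.104 and differences from -1.52 to -1.39. Pdk4, which limits glucose oxidation, had a difference of -0.99 (adjusted p = 0.0522 from limma), Txnip, a thioredoxin inhibitor, -0.87, and Plin5, a lipid droplet protein of oxidative tissue, -0.60, each lower in every treated tongue. Cyp4a14, the fatty acid omega-hydroxylase that PPAR alpha agonists induce in liver together with the peroxisomal enzymes, read 2.18 to 2.31 in control and 2.32 to 2.60 after 4NQO, below all array medians. Vnn1, Cyp4a12a, Fgf21 and Fabp1, with negative differences, and Cyp4a31, with a positive one, also lay below the array medians. The signs of such dim genes carry little weight. Muscle markers had a median difference of -0.15, and the part of muscle content in Ucp3, Pdk4 and Plin5 was not tested.

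**Figure D4:**
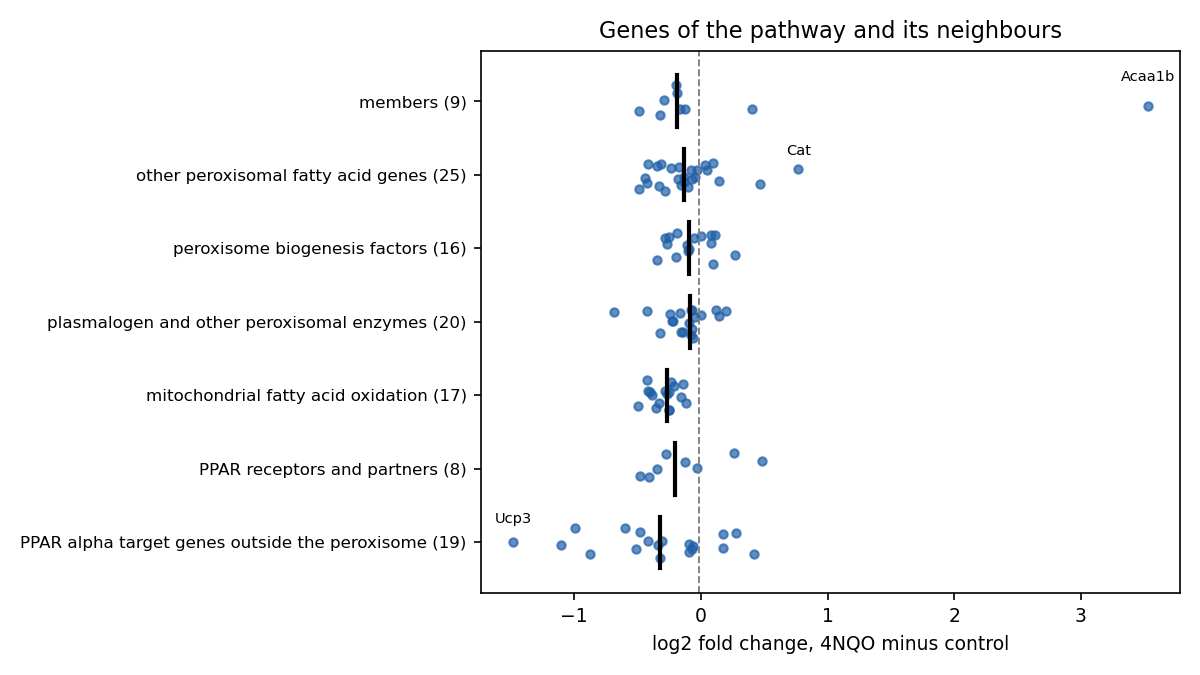
Log2 fold change, 4NQO minus control (horizontal axis), of each measured gene in 7 groups of genes, with the number measured in brackets, black bars for medians (for the members, of the 8 without Acaa1b) and a dashed line at the median of all genes, -0.01. Acaa1b lies at 3.53, Cat at 0.77 and Ucp3 at -1.48, and all 17 genes of mitochondrial fatty acid oxidation lie left of 0.

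The signal of Acaa1b was set beside marker genes of the cell types that a tongue can hold. Adipocyte genes, with 8 measured markers and none past the test, ran from a mean log2 signal of 5.96 to 7.30 in control and from 5.49 to 7.31 in treated tongues. Salivary gland genes, with 8 measured markers and none past the test, ran from 3.63 to 6.85 in control and from 3.58 to 7.42 in treated tongues. Alb, which marks hepatocytes, read 2.83 to 3.06 in all tongues, and the 7 measured hepatocyte markers had a median difference of 0.02.

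Some leukocyte and keratinocyte markers had higher signals after 4NQO, none past the adjusted threshold, and their part in the signal of Acaa1b was not tested. Over all genes, 6.68% had an unadjusted p under 0.05 from limma as higher and 3.74% as lower. Of 9 measured leukocyte markers none passed limma's test and 3 were higher at an unadjusted p under 0.05 (Itgax, Ptprc and Cd3g), with list means of 4.85 to 5.22 in control and 5.11 to 5.78 in treated tongues. Itgax, an integrin of dendritic cells and macrophages, read 5.20, 4.86 and 4.91 in control and 5.90, 6.12 and 6.38 after 4NQO, higher in every treated tongue (adjusted p = 0.0703 from limma). Of 9 measured keratinocyte markers none passed and 3 were higher at an unadjusted p under 0.05 (Krt16, Krt6a and Krt14), with list means of 12.24 to 12.37 in control and 12.29 to 12.57 in treated tongues. Krt16, a keratin of stressed epithelium, read 12.66, 12.42 and 12.14 in control and 13.49, 12.88 and 13.18 after 4NQO, also higher in every treated tongue. Of 8 endothelial and fibroblast markers none passed and 1 was lower at an unadjusted p under 0.05, Col1a2, with list means of 8.98 to 9.49 in control and 9.01 to 9.26 in treated tongues.

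**Figure D5:**
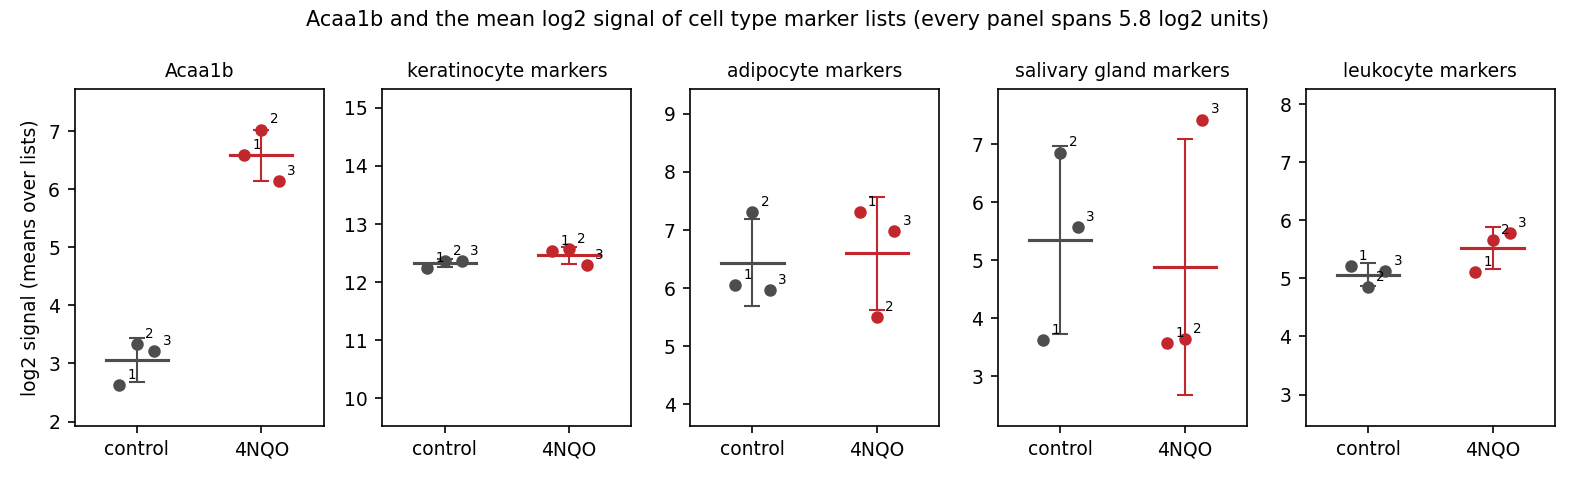
Log2 signal of Acaa1b and mean log2 signal of 4 lists of cell type markers (vertical axes, every panel spanning the same range) in 3 control and 3 4NQO-treated tongues, numbered 1 to 3, with horizontal bars for means and error bars for SD. Acaa1b is separated by treatment, from 2.63 to 3.34 against 6.14 to 7.03, whereas the means of the marker lists overlap between the groups, although single markers such as Itgax and Krt16 do not. Among all genes, 9.59% were higher without overlap.

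The 5 genes whose signal tracked Acaa1b most closely over the 6 arrays were Cetn1, Gclc, Tk1, Aunip and Ddx39a, with Pearson's r from 0.995 to 0.997. Acaa1b was chosen by the gap between its groups, so that any gene with a clear gap has a high r, and 178 of 18192 genes had an r of at least 0.95. A high r does not mean a large difference. Cetn1, with the highest r, read 3.34, 3.40 and 3.38 in control and 3.61, 3.64 and 3.56 in treated tongue. These signals lay below all array medians, and the difference was 0.23. Gclc, the catalytic subunit of glutathione synthesis, read 8.83, 9.20 and 9.02 in control and 11.30, 11.53 and 10.81 in treated tongue. Tk1, the thymidine kinase of dividing cells, read 6.97, 7.04 and 7.05 in control and 8.24, 8.33 and 8.03 in treated tongue. Among the other members r with Acaa1b was 0.58 for Crot and ran from -0.94 for Hsd17b4 to -0.47 for Ehhadh, with -0.79 for Acaa1a.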

How the data were processed

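Total RNA of individual tongues was hybridized to Affymetrix mouse arrays with 45101 probe sets, and the authors pre-processed and normalized the data in R with Bioconductor; which normalization they applied is not given in the sources. The table deposited by the authors holds log2 values for 3 control and 3 4NQO-treated tongues. Probe sets were named through the platform annotation, and 34945 of 1 gene were kept, for 18193 genes, of which 18032 were found by Entrez ID in a table of GRCm38.p6. No detection calls were used, and the number of arrays limits the precision. Groups were compared with limma 3.58.1 in R 4.3.3 (lmFit, then eBayes with trend on), two-sided, and p-values were adjusted over all genes by Benjamini-Hochberg with a threshold of 0.05. A permutation of 3 against 3 tongues cannot give a p below 0.1. Probe sets shared by Acaa1a and Acaa1b were read from a fit over probe sets of 1 or several genes. The members and lists were chosen with earlier results of these data known. Genes named are the members, genes of each list past the threshold or among its 4 smallest p, and the 5 genes most correlated with Acaa1b. Cyp4a14, Cyp4a31, Cyp4a12a, Vnn1, Fgf21, Fabp1, Pparg, Alb, Adipoq and the other markers named were added after their values were seen. Listed genes without a probe set of their own were not analysed here. The promoter sequence came from RefSeq, matched by symbol. The alternatives were quantile normalization, centring, a filter on dim genes, other probe sets, no intensity trend, a block for the replicate number, arrays left out singly or in pairs, and SAM, the study's test, with all 20 label permutations. Leaving out control 2 with treated 3 and the fit with shared probe sets were chosen after seeing the data.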

Additional observations from a re-analysis of the deposited data

How the results depend on the processing

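The difference of Acaa1b ran from 3.31 to 3.89 over 14 alternatives, and neither Acaa1b nor Ehhadh was in the fit when dim genes were left out. Some alternatives could not change it, and it stayed at 3.53 in them. They were the mean over probe sets, the probe set of largest variance, no intensity trend and the replicate block. None of the 8 other members, where tested, passed under any of the 16 alternatives, SAM included, and their signs were kept except for Scp2, at 0.085 with the mean over probe sets and 0.42 with the probe set of largest variance. Single tongues moved their sizes, with Pex11a from -0.60 to -0.0014, Abcd2 from -0.87 to -0.24 and Crot from 0.16 to 0.64 when 1 tongue was left out. Over all genes, 23 were higher and 1 lower. The numbers higher and lower were 63 and 2 with centred arrays, and 31 and 2 without an intensity trend. There were 12, 15 and 14 genes higher without dim genes, with the mean over probe sets and with the probe set of largest variance. SAM gave 59 higher and 0 lower. The numbers were 4 and 0 without both arrays of weak 5′ Gapdh signal, and 0 and 0 without control 2 and treated 3 (712 and 488 with an unadjusted limma p under 0.05). Leaving out single tongues gave 0 to 25 higher and 0 to 2 lower; the number higher was 0 without control 2 (833 with an unadjusted limma p under 0.05), 1 without treated 2 and 10 without treated 1. With the replicate number as a block, 2 were higher and 0 lower (991 and 534 with an unadjusted limma p under 0.05). Same-numbered tongues deviated from their group means with correlations of 0.29, -0.51 and 0.05, and differently numbered ones with -0.52 to 0.48. That shows no pairing by number, but with 3 tongues in a group it cannot settle the question. Among PPAR alpha targets outside the peroxisome, the number lower went from 1 to 0 with the block, with SAM, without either pair of arrays and without single tongues other than control 1 (range 0 to 1); the cause was not tested. No other list of the pathway changed its count of 0. Centring the arrays moved the median of all genes from -0.01 to 0.06 and that of the 8 members from -0.19 to -0.12.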

Other observations

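Tongues differed in transcripts of fat and gland irrespective of treatment. Adipoq read 7.86 in control 2, 8.22 in treated 1 and 7.92 in treated 3, against 3.37 to 4.23 in the other tongues. Cyp2e1, a cytochrome P450 listed here as a hepatocyte marker, was high in the same 3 tongues, at 7.70, 8.20 and 7.36, against 3.71 to 4.29 in the others. Bpifa2, a secretory protein of salivary glands, read 11.41 in control 2, 8.37 in control 3 and 12.31 in treated 3, against 2.10 to 2.80 in the other tongues.

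Within the keratinocyte markers the signs differed. Krt16 and Krt6a, keratins of stressed epithelium, were higher in every treated tongue, with differences of 0.78 and 0.34 (adjusted p = 0.194 and 0.224 from limma), while Krt15, a keratin of basal cells, had a difference of -0.64 with overlapping groups (adjusted p = 0.495 from limma).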
